A study of Arabidopsis thaliana with 18 samples.

Results

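The plastid-encoded genes of Arabidopsis thaliana are described here across the RNA-seq libraries of developing seeds. They were taken as every locus of the count table whose identifier begins with ATCG, apart from ATCG00500, which gives 132 of the 33602 loci in the table. The rule uses no measured value, but it was chosen with earlier results of these data known. A deposited symbol was used for 104 of the 132 identifiers, and the other 28 are called by their identifier only. Another 12 deposited pairs of identifier and symbol fell outside the plastid stretch of the locus numbering and were not used. Complexes were assigned by the first letters of the symbol. Counts of loci by complex below cover the loci assigned in this way. Loci without a symbol, or with a symbol of another form, may belong to the same complexes.

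The plastid keeps a small genome of its own, left over from its bacterial ancestor. It encodes core subunits of photosystem II, photosystem I, the cytochrome b6f complex, the plastid ATP synthase and the NADH dehydrogenase-like (NDH) complex, the large subunit of Rubisco, a bacterial-type RNA polymerase, and part of the plastid's ribosomes with their ribosomal and transfer RNAs. The remaining subunits of these complexes are encoded in the nucleus, made on cytosolic ribosomes and imported, whereas plastid mRNAs are translated on ribosomes inside the plastid. Most plastid transcripts carry no stable polyA tail, and in plastids added A-rich tails mark RNA for decay. Arabidopsis embryos are green while they fill with oil and protein, and their plastids carry out photosynthesis and make fatty acids.

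The data were 12 libraries in 4 groups of 3, all labelled as polyA RNA from developing seed, which the series' design places at 9 to 10 days after flowering. AtWT and AtWTtr are wild type (Col-0), and AtBD and AtBDtr carry T-DNA insertions in BADC1 and BADC3, nuclear genes for proteins that hold back the plastid acetyl-CoA carboxylase. The labels do not say what sets the tr libraries apart. The design text describes wild-type and badc1/3 plants that express HF-RPL18, a tagged cytosolic ribosomal protein under the soybean glycinin promoter, and RNA bound to tagged ribosomes collected on anti-FLAG beads, but no label ties this to a library, and they are called tr libraries here. Nothing in the labels says whether the 3 libraries of a group came from separate plants, so the tests measure the spread between these libraries, which may be technical.

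Total counts ran from 16977673 to 32547007 per library. The disrupted genes followed the labels: BADC1 (AT3G56130) lay between 31.8 and 118 counts per 1000000 counts of the library (CPM) in the wild-type libraries and between 1.21 and 3.23 in the mutant ones, and BADC3 (AT3G15690) between 49.3 and 121 against 0.0979 to 0.904. The 8 seed embryo genes checked (storage proteins and an oleosin) summed to 203172 to 247691 CPM in AtWT, 286008 to 326126 in AtBD, 435245 to 523830 in AtWTtr and 437032 to 511185 in AtBDtr.

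Few counts fell on plastid loci in any library. The 132 loci received 3916, 25952 and 26282 counts in AtWT replicates 1 to 3, 11788, 11362 and 25096 in AtBD, 128, 210 and 149 in AtWTtr, and 758, 248 and 81 in AtBDtr. As a share of all counts this was 0.0120%, 0.109% and 0.122% in AtWT and 0.0535%, 0.0556% and 0.142% in AtBD. In the tr libraries the shares were 0.000754%, 0.00101% and 0.000666% in AtWTtr and 0.00406%, 0.000952% and 0.000409% in AtBDtr. Every tr library lay below every other library, also by the Wilson 95% interval of the share, which for the tr library with the highest share, AtBDtr replicate 1, was 0.00378% to 0.00436% and for the lowest of the others, AtWT replicate 1, 0.0117% to 0.0124%. These intervals cover counting error only, since reads without molecular identifiers are not independent molecules.

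The mean share was 99.9-fold lower in AtWTtr than in AtWT, and the nearest libraries of these groups were 11.9-fold apart. It was 46.3-fold lower in AtBDtr than in AtBD, with the nearest libraries 13.2-fold apart. The latter mean rested on AtBDtr replicate 1 and AtBD replicate 3, since the fold was 123 without the former and 30.2 without the latter. In wild type the fold was 142 without AtWT replicate 1 and 74.6 without AtWT replicate 3. These folds, and the mitochondrial ones below, are on library totals with no scaling for composition. On such totals the median log2 fold change of all genes was -0.99 in AtWTtr against AtWT and -0.73 in AtBDtr against AtBD. Permuted within genotype, the difference in share between tr and other libraries was -0.0810 percentage points (two-sided exact permutation test, p = 0.005, the smallest that the 400 permutations can give, and 0.0125 adjusted over 5 tests). In bulk libraries, fewer cells of a type and less RNA per cell cannot be told apart.

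**Figure D1:**
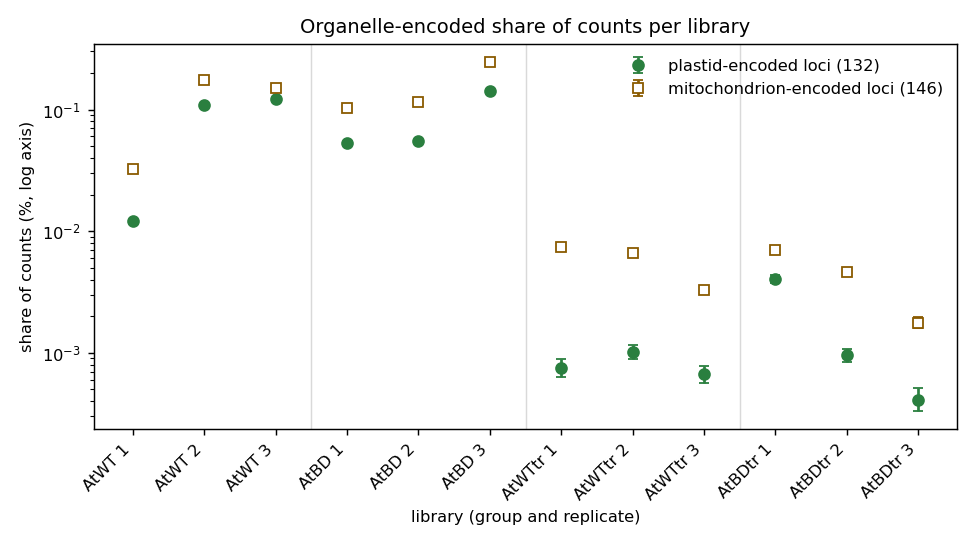
Share of all counts, in percent on a log axis, that fell on the 132 plastid-encoded loci (filled circles) and on the 146 mitochondrion-encoded loci (open squares) in each of the 12 libraries, with Wilson 95% intervals. The 6 tr libraries lie at or below 0.00406% for the plastid loci and the other 6 at or above 0.0120%.

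Mitochondrial transcripts, which also mostly lack stable polyA tails and are translated inside their organelle, shared this pattern. The mean share of the 146 mitochondrion-encoded loci was 20.7-fold lower in AtWTtr than in AtWT and 34.6-fold lower in AtBDtr than in AtBD. The ratio of plastid to mitochondrial counts was 0.368, 0.622 and 0.806 in AtWT, 0.518, 0.482 and 0.577 in AtBD, 0.101, 0.153 and 0.205 in AtWTtr, and 0.578, 0.206 and 0.231 in AtBDtr. On the log2 scale it was lower by 1.38, or 2.59-fold, in the tr libraries, so that plastid counts were lower by more than mitochondrial ones (two-sided exact permutation test within genotype, p = 0.02, 0.0333 adjusted). AtBDtr replicate 1 went against this, with a ratio inside the range of the non-tr libraries.

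Among the 6 libraries without tr, plastid loci also varied widely within a genotype. AtWT replicate 1 held 3916 plastid counts although it had the most counts in total. Reads that mapped to several places made up 1.73%, 7.70% and 8.76% of reads in AtWT and 4.36%, 4.38% and 10.1% in AtBD, and their order over these 6 libraries was the order of the plastid share. In the tr libraries they made up 4.90%, 3.69% and 4.18% in AtWTtr and 13.8%, 5.88% and 1.40% in AtBDtr. These reads were tallied apart from the loci, so they are in neither the plastid counts nor the total counts. Whether they include plastid reads, and how they bear on the plastid share, was not tested.

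Of the 132 loci, 27 had no count in any of the 12 libraries, and 16 of these are transfer RNA genes. The other 105 had at least 1 count, 72 of them in each of the 6 libraries without tr and 5 in all 12 libraries. Between 84 and 96 loci had a count per library without tr and between 16 and 38 per tr library. There were 49 loci with counts without tr that had none in any tr library, and 0 loci were counted only in tr libraries. In CPM, 62 of the 132 loci lay lower in all 6 tr libraries than in any of the others. The share of all genes that did so was not computed, nor the share counted only in libraries without tr. Neither the 49 nor the 62 is therefore read as a trait of the plastid loci. Within a genotype, 27.8% (wild type) and 25.5% (mutant) of all genes tested lay lower in every tr library, in TMM-scaled CPM. These shares are on another scale and over fewer libraries, so they are no matching background for the 62. A count of 0 in a tr library allows a share of up to 1.15e-05% to 1.77e-05% of its counts (3 counts of its total). At this depth a lower share was not detectable. Reads that mapped to several places are not among the locus counts. A locus with a near-identical copy can therefore be at 0 at any depth. How far this holds for the 27 loci at 0 was not tested.

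The counts were concentrated on few loci. The 12 most counted loci took 76.5% of plastid counts in the libraries without tr and 79.5% in the tr libraries. Levels are not compared between loci here, because longer genes gather more reads and the counts are not scaled by length.

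For tests by locus, all genes that passed a filter on low counts were fitted together with edgeR's quasi-likelihood test and Benjamini-Hochberg adjustment. Of the 132 loci, 73 passed the filter, and they passed through the libraries without tr, so their counts of calls and medians in the tr comparisons describe the loci that could be tested and support nothing about the rest. In AtWTtr against AtWT, 63 of the 73 were lower and 0 higher at an adjusted p under 0.05, while 34.2% of the 19376 genes tested were called in either direction and 19.1% lower. In AtBDtr against AtBD, 63 were lower and 0 higher, against 29.7% of all genes called and 16.9% lower. A set of 58 loci was called in both. All log2 fold changes below are on a scale that TMM factors set for composition, on which the median of all genes was -0.04 and -0.03 in these comparisons. The SE beside a log2 fold change is its absolute value divided by the square root of the F statistic of the test.

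Many of the called loci had no count in the tr group they were compared in, 31 in AtWTtr and 24 in AtBDtr. For these the fold is a lower bound, computed against 3 counts over the group. Over all tested loci without a count in the tr group the bounds ran from 2.10-fold to 67.6-fold in AtWTtr and from 4.55-fold to 47.0-fold in AtBDtr. With such loci at their bounds, the median log2 fold change of the 73 was -4.46 in AtWTtr against AtWT and -4.59 in AtBDtr against AtBD. Loci with a tr count had fitted values from -7.22 to -1.34 in wild type and from -8.02 to -2.31 in the mutant. Of the 73 loci, 64 in wild type and 67 in the mutant were lower in every tr library than in any other library of the genotype, where 27.8% and 25.5% of all genes tested were.

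**Figure D2:**
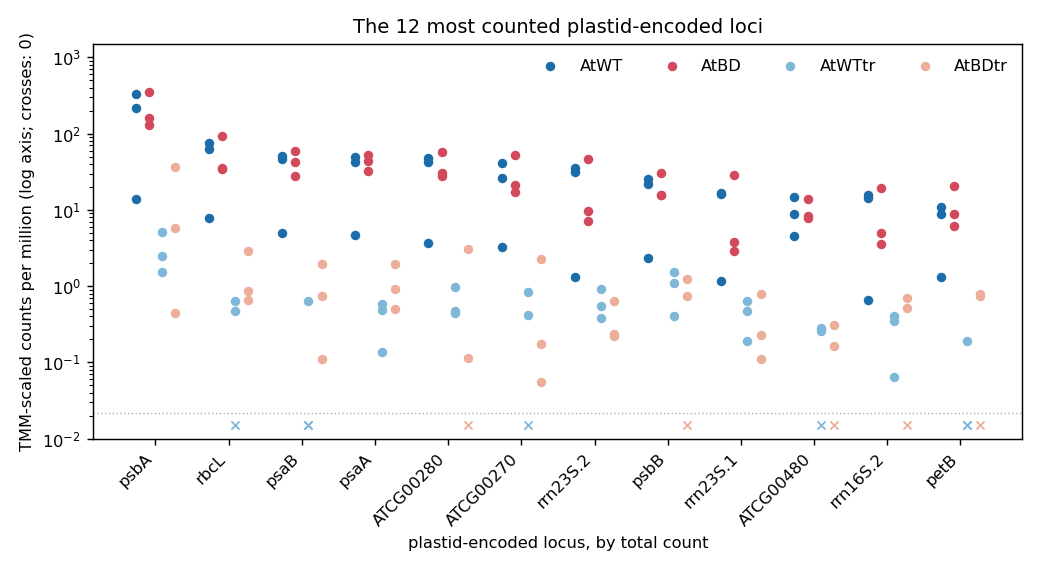
TMM-scaled CPM, on a log axis, of the 12 most counted plastid-encoded loci in each library, with the 4 groups in separate colours and each point a library. Crosses under the dotted line are libraries with no count. The tr libraries lie below the other libraries of their genotype for each of these loci.

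Photosystem II splits water and passes its electrons to plastoquinone, and 12 of the loci have a psb symbol. Of these 9 were tested, of which 7 fell in AtWTtr and 8 in AtBDtr. psbA (ATCG00020), which encodes the D1 reaction centre protein that light damages and that is continually replaced, was the most counted plastid locus and took 32.7% of all plastid counts. Its counts were 664, 6905 and 10813 in AtWT, 4160, 3283 and 8144 in AtBD, 36, 80 and 22 in AtWTtr, and 462, 99 and 8 in AtBDtr. AtBDtr replicate 1 alone held most of the psbA counts of the tr libraries. In TMM-scaled CPM (library totals multiplied by the TMM factor) psbA went from 186 ± 160 (SD, n = 3) in AtWT to 3.04 ± 1.87 in AtWTtr, which the fit put at -5.92 on the log2 scale (SE 1.25, adjusted p = 0.00212). In the mutant it went from 215 ± 122 to 14.1 ± 19.3, which the fit put at -3.95 (SE 1.12, adjusted p = 0.0153). Without AtBDtr replicate 2 the mutant value missed the threshold at -3.61 (adjusted p = 0.0654), and without AtBDtr replicate 1 it was -6.16.

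psbB (ATCG00680) encodes CP47, an inner antenna protein of photosystem II. It had 114, 829 and 717 counts in AtWT, 410, 399 and 703 in AtBD, 6, 17 and 22 in AtWTtr, and 16, 13 and 0 in AtBDtr. The tr libraries were lower in both genotypes, at -4.03 (SE 0.84, adjusted p = 0.00179) and -5.04 (SE 0.89, adjusted p = 0.000672) on the log2 scale. psbM (ATCG00220), a small subunit near the dimer interface, had 50, 96 and 123 counts in AtWT, 60, 45 and 77 in AtBD, and 1 count over the 6 tr libraries, in AtWTtr replicate 3. Its log2 value was -6.54 (SE 1.06, adjusted p = 0.000434) in wild type, and it was at least 39.4-fold lower in the mutant. The photosystem II loci that were tested and missed the threshold were psbI in both genotypes and psbE in wild type, whose 15 tr counts all came from AtWTtr replicate 1.

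Photosystem I, which passes electrons from plastocyanin to ferredoxin, was represented by 5 loci with a symbol, all tested, of which 5 fell in AtWTtr and 4 in AtBDtr. psaA (ATCG00350) and psaB (ATCG00340) encode the paired reaction centre proteins that bind most of its cofactors. psaA had 229, 1566 and 1407 counts in AtWT, 833, 1115 and 1208 in AtBD, 2, 9 and 7 in AtWTtr, and 25, 16 and 9 in AtBDtr, so each tr library kept some counts. psaB had 237, 1627 and 1527 in AtWT, 733, 1066 and 1358 in AtBD, 0, 10 and 0 in AtWTtr, and 25, 13 and 2 in AtBDtr. The log2 fold changes of psaA were -6.29 (SE 0.82, adjusted p = 3.69e-05) in wild type and -5.31 (SE 0.73, adjusted p = 7.86e-05) in the mutant. Those of psaB were -7.22 (SE 1.07, adjusted p = 0.000121) and -5.62 (SE 0.91, adjusted p = 0.000325), and in wild type its tr counts all came from AtWTtr replicate 2. psaI missed the threshold in the mutant.

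The cytochrome b6f complex links the photosystems and pumps protons. Of the 5 loci with a pet symbol, 4 were tested, and all 4 fell in both genotypes. petB (ATCG00720), for cytochrome b6, had 64, 286 and 356 counts in AtWT, 228, 156 and 467 in AtBD, 0, 3 and 0 in AtWTtr, and 10, 13 and 0 in AtBDtr, and the log2 fold changes were -6.60 (SE 1.19, adjusted p = 0.000618) and -4.57 (SE 0.91, adjusted p = 0.00167). petD (ATCG00730), for subunit IV, had 69, 299 and 157 counts in AtWT, 144, 121 and 228 in AtBD, 4 in AtWTtr replicate 1 and 1 in AtBDtr replicate 3. Its values were -5.76 (SE 0.95, adjusted p = 0.000298) and -8.02 (SE 1.13, adjusted p = 0.0001). In AtWTtr the counts of petB and of petD each came from 1 library.

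The 4 ATP synthase loci with a symbol fell in both genotypes. atpA (ATCG00120), for the alpha subunit of the catalytic head, had 76, 513 and 195 counts in AtWT and 146, 144 and 278 in AtBD. The tr libraries held 9 counts in AtWTtr replicate 2, 5 in AtBDtr replicate 1 and 0 in the other 4. Its log2 fold changes were -5.25 (SE 1.09, adjusted p = 0.00187) and -6.11 (SE 1.19, adjusted p = 0.00141).

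The NDH complex, which returns electrons from ferredoxin to plastoquinone around photosystem I, had 12 loci with a symbol, of which 9 were tested. All 9 fell in AtWTtr and 6 in AtBDtr, where ndhA, ndhC and ndhE missed the threshold. ndhD (ATCG01050), a membrane subunit, had 42, 95 and 96 counts in AtWT, 34, 81 and 112 in AtBD, 9, 1 and 1 in AtWTtr, and 1, 0 and 1 in AtBDtr. It changed by -3.15 (SE 0.89, adjusted p = 0.0127) in wild type and by -6.05 (SE 1.11, adjusted p = 0.000899) in the mutant. AtWTtr replicate 1 stood above the other 5 tr libraries, and without it the wild-type value was -4.97.

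rbcL (ATCG00490) encodes the large, catalytic subunit of Rubisco, which fixes carbon dioxide. It had 382, 2424 and 2037 counts in AtWT, 883, 895 and 2137 in AtBD, 7, 0 and 9 in AtWTtr, and 37, 15 and 12 in AtBDtr. In TMM-scaled CPM this was 48.5 ± 35.8 (SD, n = 3) in AtWT, 54.2 ± 33.7 in AtBD, 0.369 ± 0.329 in AtWTtr and 1.47 ± 1.23 in AtBDtr. It fell by 7.04 on the log2 scale in wild type (SE 0.96, adjusted p = 6.02e-05) and by 5.27 in the mutant (SE 0.83, adjusted p = 0.000246).

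The bacterial-type RNA polymerase of the plastid transcribes most photosynthesis genes and is built from 4 plastid-encoded core subunits. All 4 loci fell in both genotypes, from 788 counts in AtWT to 4 in AtWTtr and from 780 in AtBD to 5 in AtBDtr over the groups. rpoC2 (ATCG00170) had 17, 149 and 96 counts in AtWT, 66, 36 and 174 in AtBD, and 4 over the tr libraries, all in AtBDtr replicate 2. rpoA (ATCG00740), with 15, 134 and 43 in AtWT and 65, 36 and 77 in AtBD, had none in any tr library. These are at least 34.4-fold lower for rpoC2 in wild type, and for rpoA at least 25.2-fold lower in wild type and at least 38.6-fold in the mutant. rpoC1 (ATCG00180) had 10, 91 and 56 counts in AtWT, 39, 25 and 124 in AtBD, and 2 in AtWTtr replicate 3 as its only tr counts. rpoB (ATCG00190) had 30, 105 and 42 in AtWT, 49, 29 and 60 in AtBD, 2 in AtWTtr replicate 2 and 1 in AtBDtr replicate 1. With 4 or fewer counts per locus over the 6 tr libraries, differences among the 4 subunits within tr were not detectable at this depth.

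The plastid ribosome is of the bacterial type. Of 6 symbolled loci for its large subunit 5 were tested and all 5 fell in both genotypes. rpl32 (ATCG01020), a large-subunit protein, had the smallest spread of the plastid loci without tr. Its counts were 164, 193 and 189 in AtWT and 190, 150 and 149 in AtBD, against 0, 2 and 0 in AtWTtr and 3, 1 and 1 in AtBDtr. The groups were far apart, with log2 fold changes of -6.66 (SE 0.73, adjusted p = 8.02e-06) and -5.89 (SE 0.65, adjusted p = 9.53e-06). rpl16 (ATCG00790) had 49, 155 and 73 counts in AtWT, 26, 33 and 93 in AtBD, none in AtWTtr, and 1, 1 and 2 in AtBDtr. It was at least 36.3-fold lower in AtWTtr, and changed by -4.59 (SE 0.97, adjusted p = 0.00339) in the mutant.

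Ribosomal RNA, the core of the plastid ribosome, was counted despite polyA selection. Of the 7 loci 4 were tested, and all 4 fell in both genotypes. The inverted repeat of the plastid genome holds ribosomal RNA genes in near-identical copies. Reads that mapped to several places are not in the locus counts, so the counts and shares of these loci may be too low. By how much was not tested. The 23S copies rrn23S.2 (ATCG01180) and rrn23S.1 (ATCG00950) had 64, 1134 and 1026, and 56, 528 and 525 counts in AtWT. In AtBD they had 249, 182 and 1070, and 76, 95 and 651, so that 1 library of each genotype differed from the other 2 in both copies. In the tr libraries rrn23S.2 had 8, 6 and 13 in AtWTtr and 3, 11 and 4 in AtBDtr, and rrn23S.1 had 7, 3 and 9, and 10, 4 and 2. The log2 fold changes of rrn23S.2 were -5.20 (SE 1.06, adjusted p = 0.00161) and -5.81 (SE 1.12, adjusted p = 0.00133). Those of rrn23S.1 were -4.68 (SE 1.10, adjusted p = 0.00436) and -5.06 (SE 1.13, adjusted p = 0.00373), and without AtBD replicate 3 the mutant value was -3.25. The 16S copy rrn16S.2 (ATCG01210) had 32, 467 and 508 counts in AtWT, 131, 90 and 444 in AtBD, 6, 1 and 5 in AtWTtr, and 9, 9 and 0 in AtBDtr. It changed by -5.21 (SE 1.17, adjusted p = 0.00315) and -4.57 (SE 1.11, adjusted p = 0.00616).

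Transfer RNAs, which carry amino acids to the plastid ribosome, gave few counts. Of 35 loci 9 were tested, and 5 fell in AtWTtr and 6 in AtBDtr. trnS.2 (ATCG00290), the most counted, had 16, 91 and 65 counts in AtWT, 42, 36 and 118 in AtBD, and 1 over the tr libraries, in AtWTtr replicate 3. It changed by -5.94 (SE 1.33, adjusted p = 0.00403) in wild type and was at least 42.5-fold lower in the mutant. trnE, trnP and trnS.3 missed the threshold in both genotypes and trnK in wild type.

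Another 9 loci had symbols with other first letters, and of the 7 tested 4 fell in AtWTtr and 6 in AtBDtr. clpP (ATCG00670) encodes a subunit of the plastid's Clp protease and is needed for plant growth. It had 105, 230 and 172 counts in AtWT, 161, 139 and 399 in AtBD, none in AtWTtr, and 9, 12 and 0 in AtBDtr. It was at least 66.5-fold lower in AtWTtr than in AtWT and changed by -4.41 (SE 0.82, adjusted p = 0.00141) in the mutant. matK (ATCG00040), a maturase that helps to splice plastid introns, had 26, 71 and 24 counts in AtWT, 23, 47 and 53 in AtBD, and 1 over the tr libraries, in AtWTtr replicate 3. Its values were -5.38 (SE 1.27, adjusted p = 0.00561) and at least 26.7-fold lower. cemA, ycf3 and ORF31 missed the threshold in wild type, and ORF31 also in the mutant. For cemA all 14 tr counts came from AtWTtr replicate 1, the library that also held the psbE and most of the ndhD counts.

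The 28 loci without a symbol took no more than 18.8% of plastid counts in the libraries without tr. Of these 11 were tested, and 10 fell in AtWTtr and 11 in AtBDtr. ATCG00280 had 177, 1563 and 1384 counts in AtWT, 733, 779 and 1317 in AtBD, 7, 7 and 14 in AtWTtr, and 39, 2 and 0 in AtBDtr. Its log2 fold changes were -5.63 (SE 1.07, adjusted p = 0.000955) and -5.36 (SE 1.03, adjusted p = 0.00131), the latter being -9.32 without AtBDtr replicate 1. ATCG00270 had 159, 1308 and 859 in AtWT, 445, 535 and 1191 in AtBD, 0, 13 and 6 in AtWTtr, and 29, 3 and 1 in AtBDtr, with -5.76 (SE 1.10, adjusted p = 0.000948) and -5.33 (SE 1.03, adjusted p = 0.00138), or -8.02 in the mutant without AtBDtr replicate 1. In these 2 loci AtBDtr replicate 1 again held most of the AtBDtr counts. ATCG00480 had 222, 469 and 292 in AtWT, 219, 196 and 320 in AtBD, 0, 4 and 4 in AtWTtr, and 4, 0 and 3 in AtBDtr. It stayed within a narrower range without tr, and changed by -5.66 (SE 0.72, adjusted p = 3.01e-05) and -6.04 (SE 0.73, adjusted p = 2.72e-05). ATCG00330, with 27, 240 and 211 in AtWT, 99, 120 and 280 in AtBD, 1, 2 and 0 in AtWTtr, and 3, 0 and 0 in AtBDtr, changed by -6.05 (SE 1.17, adjusted p = 0.00107) and -6.64 (SE 1.17, adjusted p = 0.000667).

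**Figure D3:**
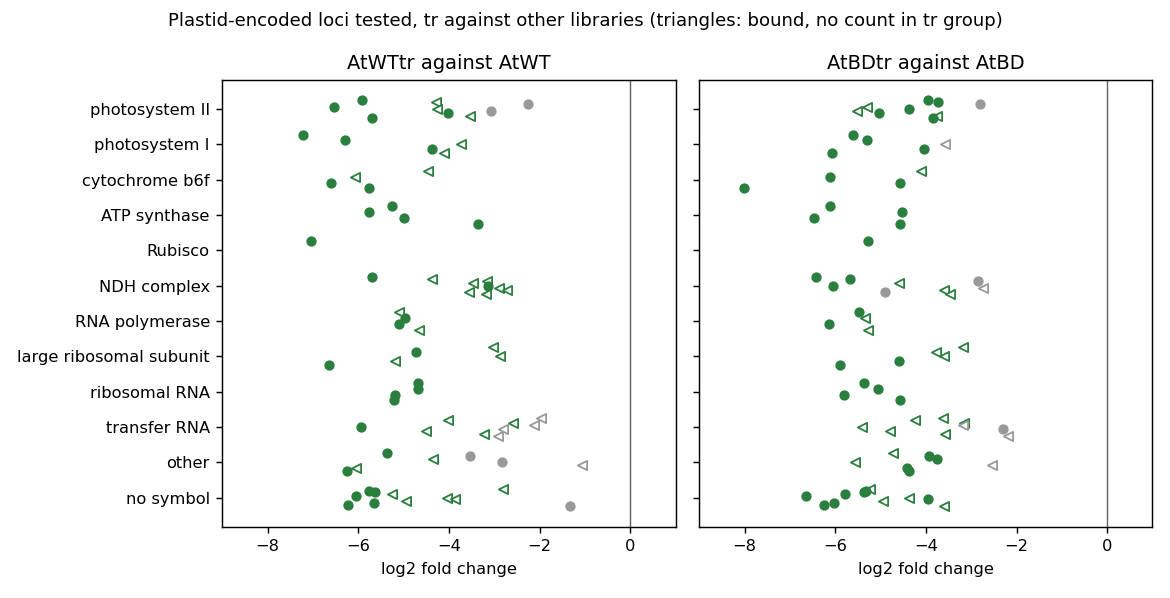
Log2 fold change of tested plastid-encoded loci in AtWTtr against AtWT and AtBDtr against AtBD, by complex, without the small ribosomal subunit. Filled circles are fitted values of loci with a count in the tr group, open triangles are lower bounds of the change for loci with none, and grey marks an adjusted p of 0.05 or more. Every locus shown lies below 0.

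The make-up of the plastid counts was followed through the share of psbA and of each complex. psbA took 17.0%, 26.6% and 41.1% of plastid counts in AtWT, 35.3%, 28.9% and 32.5% in AtBD, 28.1%, 38.1% and 14.8% in AtWTtr, and 60.9%, 39.9% and 9.88% in AtBDtr. The mean difference within genotype was 1.73 percentage points (two-sided exact permutation test, p = 0.84, 0.94 adjusted), with the tr libraries spread both above and below the others. In AtBDtr replicate 3 the psbA share rested on 8 of 81 counts, with a Wilson 95% interval of 5.09% to 18.3%. In AtBDtr replicate 1 it rested on 462 of 758 counts, with 57.4% to 64.4%. Ribosomal RNA took 3.80% to 9.93% of plastid counts without tr and 3.56% to 24.2% with it, photosystem I 12.4% to 20.6% and 2.34% to 23.5%, and Rubisco 7.49% to 9.75% and 0% to 14.8%.

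**Figure D4:**
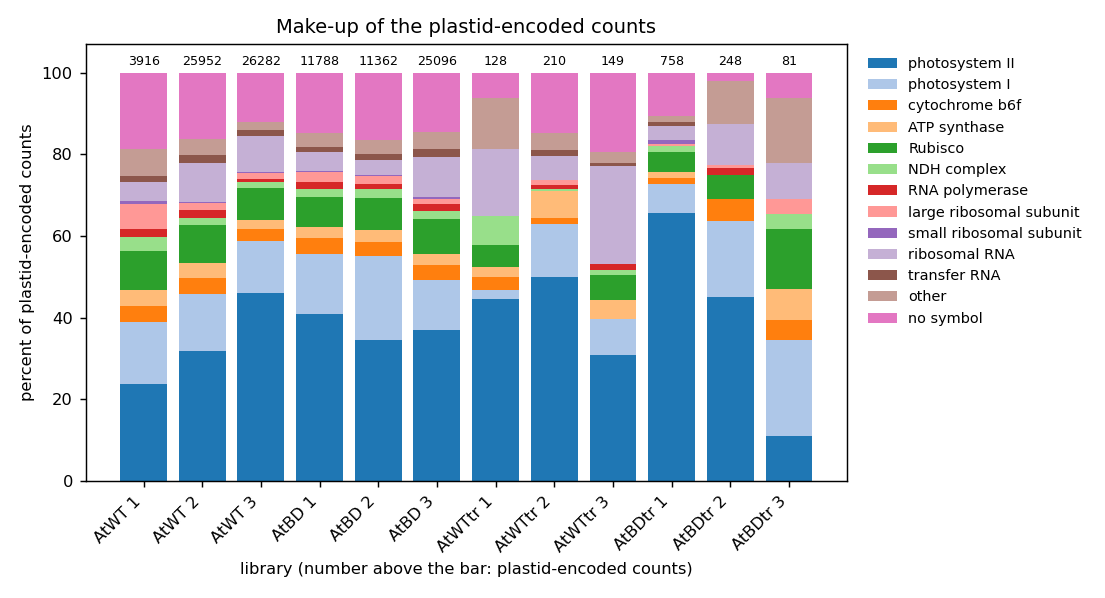
Percent of the plastid-encoded counts of each library that fell on loci of each complex, as stacked bars that sum to 100%, with the number of plastid-encoded counts above each bar. The tr bars rest on 81 to 758 counts and the others on 3916 to 26282.

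Genotype was compared within each kind of library. In AtBD against AtWT 0 of the 73 tested loci passed the threshold by edgeR, 0 had an unadjusted p under 0.05, and edgeR called 0.0568% of all 19376 genes (11 genes). DESeq2 also called 0 loci and 77 genes in all, and edgeR fitted to these 6 libraries only called 0 loci and 287 genes. The median log2 fold change of the 73 was 0.28. psbA changed by 0.21 (SE 0.98) and rbcL by 0.16 (SE 0.64), each less than its SE. None of the 73 loci separated AtBD from AtWT without overlap, where 19.7% of all genes did. In AtBDtr against AtWTtr 0 loci passed by edgeR, 4 had an unadjusted p under 0.05 and edgeR called 0.0413% of all genes (8 genes). DESeq2 called 0 loci and 21 genes in all, and edgeR fitted to these 6 libraries only called 0 of the 3 loci it tested and 5 genes. rbcL and rpl16 lay higher in all 3 AtBDtr libraries than in the AtWTtr ones, 2 of 73 where 4.25% of all genes did so. psbA changed by 2.18 (SE 1.12) and rbcL by 1.94 (SE 1.10), and neither passed. The value for psbA rested on AtBDtr replicate 1, without which it was -0.000523.

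The tr difference was also compared between genotypes. The interaction term was called for 0 of the 73 loci and 0% of all genes by edgeR, with 4 loci at an unadjusted p under 0.05 and 0 called by DESeq2. For psbA the difference of the log2 fold changes was 1.97 (SE 1.48) and for rbcL 1.78 (SE 1.28). The share of plastid counts differed by 0.00179 percentage points between badc1/3 and wild type within library kind (two-sided exact permutation test, p = 0.94, 0.94 adjusted). This difference is set by the libraries without tr, where the mean share was 0.0810% ± 0.0601 (SD, n = 3) in AtWT and 0.0836% ± 0.0504 in AtBD. The tr means were 0.000811% ± 0.000180 and 0.00181% ± 0.00197, the latter resting on AtBDtr replicate 1. On the log2 scale, where both kinds weigh alike, the difference was 0.51 (two-sided exact permutation test, p = 0.49). In percentage points the direction turned without AtWT replicate 1 (-0.0155) or without AtBD replicate 3 (-0.0128).

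AtWT replicate 1 stood below the other AtWT libraries across the plastid loci. A count was present for 59 plastid loci in all 6 libraries without tr, with a mean of at least 20 counts there. In CPM all 59 were lower in AtWT replicate 1 than in both other AtWT libraries, with a median ratio of 0.138 to their mean and a range from 0.0374 to 0.597. The share of all genes that were lower there was not computed. Mitochondrion-encoded loci were also lower in this library, at 0.0327% of counts against 0.175% and 0.151% in AtWT replicates 2 and 3. The plastid loci were not lowered by the same factor. rpl32 was at 5.04 CPM against 8.10 and 8.78 (ratio 0.597) and psbK, a small subunit of photosystem II, at 1.32 against 2.18 and 2.46 (ratio 0.569). ycf4, needed to assemble photosystem I, had the lowest ratio at 0.0374, and rrn23S.2 was at 0.0413. Over the 6 libraries, highest and lowest CPM differed 10.7-fold at the median locus. The smallest such spreads were those of rpl32 (1.74-fold), psbK (2.11-fold), ATCG00480 (2.89-fold), psbM (3.72-fold) and matK (3.75-fold), and the largest that of psbT (57.3-fold), a photosystem II subunit with 8, 34 and 46 counts in AtWT and 1, 15 and 46 in AtBD, whose spread rests on the 1 count of AtBD replicate 1. psbK, ycf4 and psbT are named because of where they fell in this ranking.

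**Figure D5:**
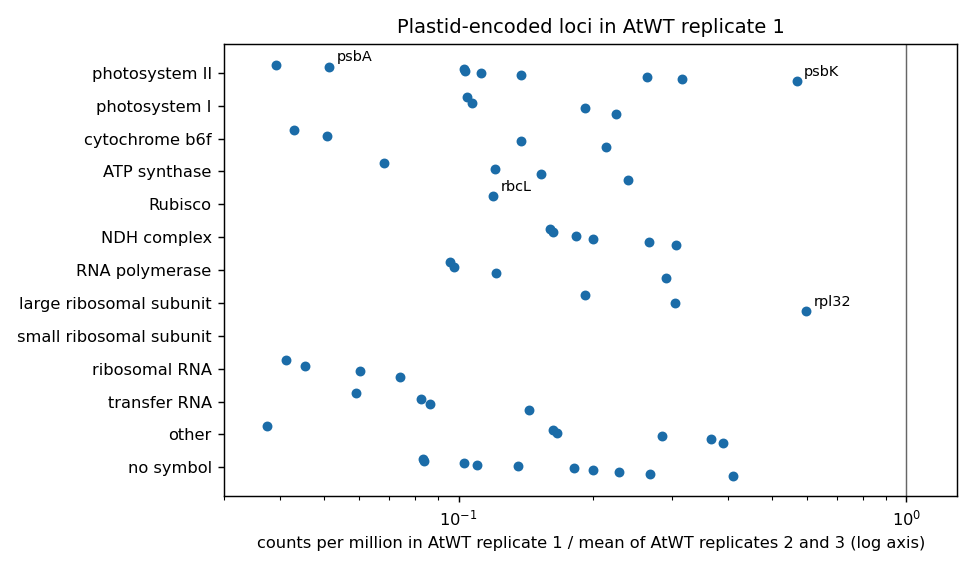
CPM in AtWT replicate 1 divided by the mean of AtWT replicates 2 and 3, on a log axis, for the 59 plastid-encoded loci with enough counts, by complex. All points lie below 1, from 0.0374 to 0.597, and rpl32 and psbK lie nearest to 1.

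The nuclear genes for the partner subunits are given beside the plastid loci, by lists chosen with earlier results known. Over all genes tested, 19.1% were called lower in AtWTtr against AtWT and 16.9% in AtBDtr against AtBD, so the counts for photosystem I and II in wild type lie near the share of all genes. Of 14 photosystem I and light-harvesting complex I genes, 3 fell in AtWTtr against AtWT (median log2 fold change -0.66) and 10 in AtBDtr against AtBD (median -1.46), and of 19 for photosystem II and its antenna 5 fell (median -0.91) and 15 (median -1.67). LHCA4, an antenna protein of photosystem I, fell by 1.32 (SE 0.39, adjusted p = 0.016) and 1.80 (SE 0.39, adjusted p = 0.00303). Of 8 nuclear genes for cytochrome b6f, electron carriers and ATP synthase, 0 were called in wild type and 6 fell in the mutant (medians -0.68 and -1.27). PETC, the Rieske protein that works beside petB and petD, was at -0.02 (SE 0.20) and -0.39 (SE 0.20), neither called.

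Among the 4 Rubisco small subunit genes the members differed. RBCS1A, at 1728 TMM-scaled CPM in AtWT and 2177 in AtWTtr, was at 0.33 (SE 0.36) and -0.07 (SE 0.36) in the wild-type and mutant comparisons, neither called. RBCS1B, RBCS2B and RBCS3B fell in both, RBCS3B by 3.64 (SE 0.46) from 219 to 17.7 in wild type. RBCS genes are near-identical copies, and reads that mapped to several places are in none of their counts. How far this lowered each gene was not tested. Of 5 nuclear NDH genes 4 fell in each genotype, with medians of -2.41 and -2.21. NdhM fell by 4.21 (SE 0.98, adjusted p = 0.00409) in wild type and NdhN by 4.89 (SE 0.97, adjusted p = 0.00159) in the mutant.

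Among the nuclear genes for plastid gene expression the calls were few, where 34.2% of all genes were called in wild type and 29.7% in the mutant. Of 12 proteins associated with the plastid RNA polymerase, 1 rose in each genotype and 0 fell (medians 0.09 and 0.20). That gene was FSD3, a plastid superoxide dismutase of the polymerase complex, which rose by 0.86 (SE 0.20, adjusted p = 0.00364) and 0.91 (SE 0.20, adjusted p = 0.00318). With library totals in place of TMM factors the median of all genes lay at -0.99 and -0.73, so rises of this size hold relative to that median only. Of 8 sigma factors and phage-type polymerases, SIGA, a sigma factor that directs the plastid polymerase to promoters, fell by 0.76 (SE 0.25, adjusted p = 0.0288) and 0.96 (SE 0.25, adjusted p = 0.0102), and AT5G15700, in the same list, rose by 1.11 (SE 0.38, adjusted p = 0.0379) in the mutant. Of 11 nuclear genes for plastid ribosomal proteins, RPL12-A fell by 0.89 (SE 0.22, adjusted p = 0.00636) and 0.92 (SE 0.23, adjusted p = 0.00624) and the other 10 were not called. In AtBD against AtWT and in AtBDtr against AtWTtr 0 genes of the nuclear lists were called, where 0.0568% and 0.0413% of all genes were. In AtBDtr against AtWTtr all 14 photosystem I genes (median log2 fold change -1.23), all 19 of photosystem II (median -1.22) and all 8 of cytochrome b6f, carriers and ATP synthase had values below 0. In AtBD against AtWT the members of these lists were also all below 0, with medians of -0.45, -0.57 and -0.35. The median of all genes was 0.0105 in AtBDtr against AtWTtr and 5.64e-05 in AtBD against AtWT. These values are a description, since no gene of these lists passed the threshold in either comparison.

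Markers of other seed tissues moved with the tr libraries too. The 5 seed coat genes summed to 908 to 1421 CPM in AtWT, 538 to 757 in AtBD, 108 to 182 in AtWTtr and 64.9 to 164 in AtBDtr, with none at 0 in any group. The 3 endosperm genes summed to 98.6 to 146, 37.7 to 68.7, 2.50 to 5.16 and 1.69 to 4.85 in the same order, and 1 of the 3 had no count in either tr group. The 8 genes of leaf and silique wall photosynthetic tissue, which the green embryo also expresses in part, summed to 2606 to 3344, 1582 to 1845, 226 to 717 and 67.6 to 377, with none at 0. This list holds RBCS1B, RBCS2B and RBCS3B but not RBCS1A, which was at 0.33 and -0.07 on the log2 scale and not called. Its sum therefore depends on which Rubisco genes it includes. These lists were lower in the tr libraries of each genotype without overlap, as were the plastid shares, and their part in the plastid values was not tested. The sums are on library totals without TMM factors. On that scale the median log2 fold change of all genes was -0.99 in AtWTtr against AtWT and -0.73 in AtBDtr against AtBD. How many genes lay lower without overlap on that scale was not computed.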

How the data were processed

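PolyA RNA of developing seeds had been sequenced. The authors deposited raw counts per locus, unnormalized, as a table of 12 libraries and as per-library files with unstranded and stranded count columns. The counting program is not given in the sources used here. Per the submitters' processing notes the build was TAIR10 and the tools included Cuffdiff, TopHat and Cufflinks (versions not given in the sources used here). Symbols came from the authors' deposited table of the other libraries, whose values were not used here, and 102 of the 104 also stand among RefSeq plastid genes.

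Unstranded counts were fitted in R 4.3.3 with edgeR 4.0.16 (filterByExpr, TMM, quasi-likelihood, 1 coefficient per group over all 12 libraries, Benjamini-Hochberg over 19376 genes, adjusted p under 0.05). The fit was run on simulated data with changes in AtBD only and the same spread for all genes. No tr difference was simulated, so that run does not bear on the tr calls. DESeq2 1.42.0, other scalings, filters, stranded columns, a replicate block and leaving out each library were alternatives. Shares were compared in Python 3.11.15 by exact permutation (scipy 1.17.1), and intervals are Wilson 95% intervals. Loci are named as the 12 most counted, up to 10 per comparison with the smallest adjusted p, psbA, rbcL, matK and the rpo genes, and the most counted of each complex. A locus that this rule picks is not reported here. Others were named after their values were seen, such as loci that missed the threshold. The members and lists were chosen with earlier results of these data known. The permutation tests of 3 quantities (plastid to mitochondrial ratio, mitochondrial share and psbA share) were added after seeing the data. No sequence or coordinate is given, since the reference used here is of another build.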

Additional observations from a re-analysis of the deposited data

How the results depend on the processing

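Under 22 alternatives the calls in the tr comparisons kept their direction. In AtWTtr against AtWT, 63 loci were called, and the count was 39 of the 43 tested when only the libraries compared were fitted, a fit in which fewer loci passed the filter. Leaving out 1 library gave 51 to 68 calls there and 52 to 65 in AtBDtr against AtBD, and 0 in the other comparisons and the interaction. DESeq2 gave 64 and 66, no filter 65 and 66 of 132, and a filter of 1 CPM 42 and 44 of 44. Library totals without TMM factors gave 70 and 69, moved the median of all genes to -0.99 and -0.73, and raised the lower share of all calls from 55.7% and 56.9% to 95.9% and 94.6%. Same-numbered libraries did not deviate together (correlations from -0.277 to 0.0936, 0 of 3 pairs above 0.1 in each comparison). These correlations cannot show whether such libraries shared a plant, a harvest or a batch. With the replicate block 59 and 57 loci were called, and 0 in the others. Of 1179 values of named loci under alternatives, 0 reversed, 11 lost the call and 2 gained it. DESeq2 gave no adjusted p for rrn23S.1, and ndhD in wild type missed the threshold in 1 stranded column (-2.42). psaB, petB, atpA, rpl32, petD, psbM, trnS.2, rpoC1, rpoB and matK in AtWTtr and atpA, petD, ATCG00330, rpoC2 and rpoB in AtBDtr were counted in 1 tr library of the group. Genotype directions of psbA and rbcL turned with library totals (-0.00599 and -0.0248) and without single libraries (psbA -0.36 to 0.91, rbcL -0.48 to 0.63, psbA in tr -0.000523 to 2.78). The genotype difference in share ran from -0.0155 to 0.0121 and the psbA share difference from -4.28 to 8.49 percentage points. The tr difference in share ran from -0.0983 to -0.0665, the plastid to mitochondrial log2 ratio from -1.61 to -1.24, and the mitochondrial log2 share from -5.06 to -4.39. The tr libraries hold 81 to 758 plastid counts, which limits every value by locus there.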
